A study of Mus musculus with 6 samples.

Results

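Nodal, a secreted ligand of the TGF-beta superfamily, was followed with its feedback inhibitors, its co-receptor, its receptors and its SMAD proteins. The cells were mouse embryonic stem (ES) cells labelled as lacking Max and wild-type ES cells. The set was chosen by name and holds 10 genes, Nodal, Lefty1, Lefty2, Tdgf1, Acvr1b, Acvr2a, Acvr2b, Smad2, Smad3 and Smad7, and all 10 were found among the 55536 Ensembl genes of each library. RNA was sequenced from 3 ES cell samples of genotype Max-/- (Max-KO) and 3 of genotype wild type (WT), all of strain C57BL/6. The labels name no other allele or agent, and they give neither the culture medium nor whether a genotype is 1 clone or several. They do not say either that the 3 samples of a genotype were grown as separate cultures. The p-values therefore speak to the spread among these samples alone, which may be technical. MAX is the shared dimerization partner of MYC proteins and of the repressors MXD, MNT and MGA.

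Nodal signals through a type II receptor (ACVR2A or ACVR2B) and the type I receptor ACVR1B, and it needs an EGF-CFC co-receptor such as CRIPTO, the product of Tdgf1. The activated type I receptor phosphorylates SMAD2 and SMAD3, which enter the nucleus with SMAD4 and act with FOXH1 and other factors on targets that include Nodal itself and its secreted inhibitors Lefty1 and Lefty2. SMAD7 is an inhibitory SMAD that blocks the type I receptor. In mouse ES cells the pathway is active without added ligand, and in the embryo it patterns the epiblast, the germ layers and the left-right axis.

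The libraries differed between genotypes well beyond the 10 genes. Between libraries of 1 genotype, Pearson's r of log2(FPKM + 1) was 0.978 to 0.985, and between genotypes it was 0.891 to 0.909. Summed FPKM (fragment counts corrected for gene length and sequencing depth) was 645169 to 658361 in Max-KO libraries and 743406 to 774405 in WT libraries, and 14108 to 14226 genes in Max-KO libraries and 12587 to 12847 in WT libraries reached 1 FPKM. Max itself had 35.8, 39.6 and 43.4 FPKM in Max-KO libraries, against 41.6, 50.2 and 42.3 FPKM in WT libraries. These groups overlapped (log2 difference -0.17, limma adjusted p = 0.168), and a gene-level value cannot reveal a missing exon, so Max-KO here means the libraries labelled Max-KO.

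Markers of ES cells were high in both genotypes. The 9 ES cell markers summed to 2098 to 2206 FPKM in Max-KO libraries and 1674 to 1743 FPKM in WT libraries, and 7 of the 9 rose. The marker counts here stand beside 43.0% of all genes tested that were higher in Max-KO cells and 23.2% that were lower. The sum over 7 primitive endoderm markers was 5.71 to 10.2 FPKM in Max-KO libraries and 1.97 to 2.42 FPKM in WT libraries, and all 4 that were tested rose, but only 1 of them, Dab2, had means of at least 1 FPKM in both genotypes, so for the other 3 the filter on low values (only genes averaging 1 FPKM or more in either genotype were tested) set the direction. The sum over 6 mesoderm and primitive streak markers was 5.85 to 7.77 FPKM in Max-KO libraries and 3.70 to 3.81 FPKM in WT libraries, and the 1 tested, Eomes, rose. For 6 formative and primed epiblast markers it was 57.6 to 72.8 FPKM in Max-KO libraries and 113 to 117 FPKM in WT libraries, and of 5 tested 2 rose and 3 fell. Trophoblast markers (7 genes) summed to 79.6 to 99.3 FPKM in Max-KO libraries and 62.2 to 70.2 FPKM in WT libraries, with 5 of 6 tested higher, 2 of which (Elf5 and Krt7) had passed the filter only through Max-KO and could only rise. Neural markers (6 genes) summed to 68.5 to 71.4 FPKM in Max-KO libraries and 128 to 149 FPKM in WT libraries, with all 4 tested lower. The sum over 6 fibroblast feeder markers was 9.47 to 11.7 FPKM in Max-KO libraries and 9.63 to 10.1 FPKM in WT libraries, and 1 of 3 tested rose. No marker of these lists was at 0 in all 6 libraries. Few genes carried most of some sums. Tubb3 (mean 60.5 FPKM in Max-KO cells and 117 FPKM in WT cells) did so for the neural sum. Dnmt3b (39.8 and 85.5 FPKM) did so for the formative and primed sum, and Krt8 with Krt18 for the trophoblast sum. A further sum, over 4 Y-linked genes and Xist, was 43.7 to 59.6 FPKM in Max-KO libraries and 1.95 to 3.03 FPKM in WT libraries. Ddx3y, for example, averaged 21.1 FPKM in Max-KO cells and 1.01 FPKM in WT cells. The labels do not say whether both genotypes come from the same cell line, so for every Max-KO minus WT difference given here the line and the Max genotype cannot be told apart. The part of these differences in the values of the pathway was not tested, and in such bulk RNA fewer cells of a type and less RNA per cell cannot be told apart.

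Lefty1 and Lefty2 are neighbouring genes with similar coding sequences, so it matters here whether reads can tell them apart. Lefty1 lies at chr1:180935022-180938400 and Lefty2 at chr1:180893108-180899103 of GRCm38, both on the plus strand. Their coding sequences are 1104 bases long each and identical at 1014 bases (91.9%). The window of 90 coding bases in which they differ most, bases 35 to 124 of each, is shown 5′ to 3′ from the GENCODE M21 transcripts, with the 27 differing bases in capitals.
Lefty1: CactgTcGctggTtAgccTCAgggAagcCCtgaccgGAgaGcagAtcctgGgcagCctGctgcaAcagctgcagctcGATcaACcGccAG
Lefty2: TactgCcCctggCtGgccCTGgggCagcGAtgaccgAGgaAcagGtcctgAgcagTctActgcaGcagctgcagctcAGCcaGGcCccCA
Of the 75-base windows of the transcripts, 173 of 1546 in Lefty1 (11.2%) occur in Lefty2, and the same 173 are 7.21% of the 2399 windows of Lefty2. A read confined to such a window could not be placed by sequence alone, while a longer read or a read pair might be. The split between Lefty1 and Lefty2 thus rests on windows that differ. The pair shown differs most among windows of 90 coding bases, and sequence outside the coding part was not searched for a more different window. The length of 75 bases was fixed for this count, so these shares are of windows and not of reads. Among the other members, Acvr2a shared no 75-base window with Acvr2b and Smad3 none with Smad2. Tdgf1 shared 161 of 1858 windows (8.67%) with its pseudogene Tdgf1-ps1, which was listed at 0 FPKM in all 6 libraries.

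Promoters are shown for Nodal and Acvr1b, the ligand and the type I receptor, because both genes rose in Max-KO cells and MAX dimers bind the E-box CACGTG. Tdgf1 and Acvr2a rose as well, and their promoters are not shown. The sequences are from RefSeq (GRCm38.p6), run 5′ to 3′ from 250 bases before to 50 bases after the gene start, and were present for 6 of the 10 members (Nodal, Tdgf1, Acvr1b, Acvr2a, Acvr2b and Smad3). Capitals mark a match to any of 4 motifs searched on both strands, which are CACGTG, the FOXH1 motif AATNCACA, the palindromic SMAD motif GTCTAGAC and the shorter CAGAC.
Nodal, chr10:61417722-61418021, plus strand: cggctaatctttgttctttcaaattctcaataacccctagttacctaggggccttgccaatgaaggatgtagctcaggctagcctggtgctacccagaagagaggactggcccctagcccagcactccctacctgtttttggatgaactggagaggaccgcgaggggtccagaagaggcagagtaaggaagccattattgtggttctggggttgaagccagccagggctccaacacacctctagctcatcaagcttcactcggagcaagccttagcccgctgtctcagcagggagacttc
Acvr1b, chr15:101173822-101174121, plus strand: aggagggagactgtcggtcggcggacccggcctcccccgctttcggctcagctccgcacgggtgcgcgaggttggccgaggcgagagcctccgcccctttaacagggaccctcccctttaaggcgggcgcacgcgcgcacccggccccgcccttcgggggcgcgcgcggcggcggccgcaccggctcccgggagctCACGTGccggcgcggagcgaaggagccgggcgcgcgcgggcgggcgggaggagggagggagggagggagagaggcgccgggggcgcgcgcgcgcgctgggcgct
Acvr1b holds 1 CACGTG, at bases 197 to 202 of its window, and Nodal holds none of the 4 motifs there. CAGAC was found once each in the windows of Tdgf1, Acvr2a and Acvr2b, and Smad3 had no match. Acvr1b was the only 1 of the 6 with CACGTG, so Nodal, Tdgf1 and Acvr2a rose without it in the window. Whether the E-box has a part in the rise of Acvr1b was not tested. Of 32851 promoters of this length, CACGTG was in 7.15%, AATNCACA in 3.6%, GTCTAGAC in 0.213% and CAGAC in 49.6%. A match is a run of letters and not evidence of binding, and no match says only that the letters are not in the window.

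Of the 10 genes, 4 rose in Max-KO cells (Nodal, Acvr2a, Acvr1b and Tdgf1), 3 fell (Lefty1, Smad3 and Smad7) and 3 were not called (Lefty2, Acvr2b and Smad2). Calls are at a Benjamini-Hochberg adjusted p under 0.05 from limma over 14661 genes, on log2(FPKM + 1). All 10 had a mean of at least 1 FPKM in both genotypes, so the filter on low values set no direction among them. The 7 calls are 70.0% of the 10, beside 66.2% of all genes tested. For higher genes the background was 43.0% of all genes tested, and for lower genes 23.2%. The groups did not overlap for 7 of the 10, beside 72.0% of all genes tested. The members were thus called about as often as any gene. The median log2 difference (Max-KO minus WT) of the 10 was 0.0031, beside 0.21 for all genes tested, and the median absolute difference was 0.42, beside 0.50. Differences are given as fitted, and should be read relative to that median of 0.21. The 95% intervals of Nodal (0.69 to 1.18) and Acvr2a (0.41 to 1.25) lay wholly above the median. That of Tdgf1 (0.23 to 0.45) began just above it, and that of Acvr1b (0.11 to 0.63) included it. Those of Lefty1, Smad3, Smad7 and Acvr2b lay wholly below it, and those of Lefty2 and Smad2 included it.

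**Figure D1:**
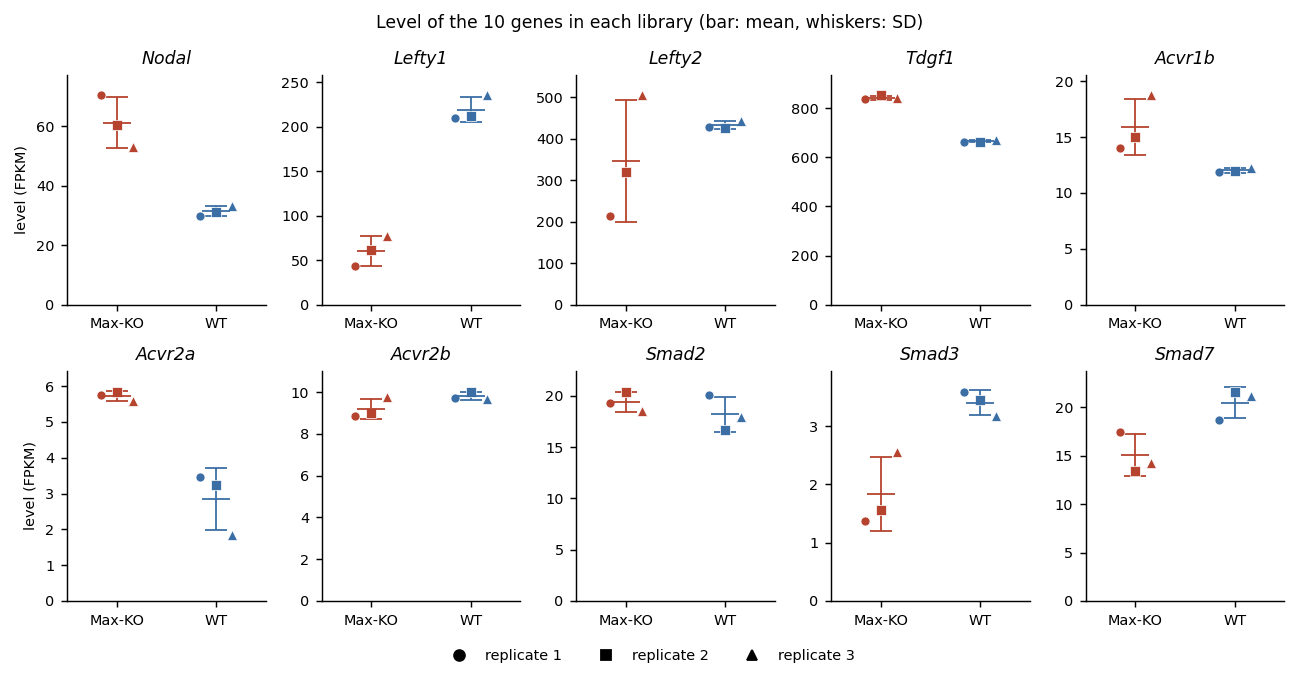
Level in FPKM of each of the 10 genes in the 3 Max-KO libraries (red, left) and the 3 WT libraries (blue, right); each vertical axis starts at 0, the bar is the mean and the whiskers are the SD. Nodal, Tdgf1, Acvr1b and Acvr2a lie higher in every Max-KO library, Lefty1, Smad3 and Smad7 lie lower, and Lefty2, Acvr2b and Smad2 overlap.

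FPKM is scaled to length, so levels can be compared between genes. In Max-KO cells the order of mean levels was Tdgf1, Lefty2, Nodal, Lefty1, Smad2, Acvr1b, Smad7, Acvr2b, Acvr2a and Smad3. In WT cells it was Tdgf1, Lefty2, Lefty1, Nodal, Smad7, Smad2, Acvr1b, Acvr2b, Smad3 and Acvr2a. In Max-KO libraries the neighbours Nodal and Lefty1, Smad2 and Acvr1b, and Acvr1b and Smad7 overlapped. In WT libraries Smad7 overlapped with Smad2, and Smad3 with Acvr2a.

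Nodal rose in Max-KO cells, its secreted inhibitor Lefty1 fell, and Lefty2 was not called. Nodal (ENSMUSG00000037171, chr10:61417972-61425338, plus strand) had 70.5, 60.5 and 53.05 FPKM in Max-KO libraries, against 29.9, 31.04 and 33.4 FPKM in WT libraries. Every Max-KO library lay above every WT library. Nodal averaged 61.3 ± 8.74 FPKM in Max-KO cells and 31.4 ± 1.75 FPKM in WT cells (SD, n = 3 each), a log2 difference of 0.93 ± 0.11 (SE; limma adjusted p = 2.45e-04).

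Lefty1 (ENSMUSG00000038793), the inhibitor that binds Nodal and its co-receptor, had 43.9, 60.9 and 77.5 FPKM in Max-KO libraries, against 209.8, 212 and 235 FPKM in WT libraries. The groups were far apart, and the highest Max-KO library stayed well under the lowest WT library. Lefty1 averaged 60.7 ± 16.8 FPKM in Max-KO cells and 219 ± 14.01 FPKM in WT cells (SD, n = 3 each), which is 3.61-fold lower in Max-KO cells. Its log2 difference of -1.87 ± 0.19 (SE; limma adjusted p = 2.66e-04) was the largest in size among the 10 genes, also under each of the 13 alternatives run.

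Lefty2 (ENSMUSG00000066652), the second inhibitor of the pair, had 213, 319 and 504 FPKM in Max-KO libraries, against 427, 425 and 443 FPKM in WT libraries. Max-KO replicates 1 and 2 lay below all WT libraries and Max-KO replicate 3 lay above them, so the groups overlapped. The log2 difference was -0.41 ± 0.30 (SE; 95% interval -1.16 to 0.34; limma adjusted p = 0.274). Without Max-KO replicate 3 it was -0.73 and called (limma adjusted p = 0.0124), and without Max-KO replicate 1 it was -0.11 (limma adjusted p = 0.646). The interval includes both no difference and a fall as large as 1.16 on the log2 scale.

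Among receptors, the co-receptor gene Tdgf1 (ENSMUSG00000032494, chr9:110939603-110946158, minus strand) had the highest level of the 10 genes. It had 837, 853 and 841 FPKM in Max-KO libraries, against 664, 665 and 671 FPKM in WT libraries. The libraries of a genotype were nearly equal and the groups were apart. The log2 difference was 0.34 ± 0.05 (SE; limma adjusted p = 5.56e-04).

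Acvr1b (ENSMUSG00000000532, chr15:101174067-101213684, plus strand), the type I receptor also called ALK4, had 14.01, 14.99 and 18.74 FPKM in Max-KO libraries, against 11.9, 11.9 and 12.3 FPKM in WT libraries. All Max-KO libraries were higher, with replicate 3 highest. The log2 difference was 0.37 ± 0.11 (SE; limma adjusted p = 0.0211). The call was lost with median-ratio scaling (0.25, limma adjusted p = 0.0829), with quantile normalization (0.12, limma adjusted p = 0.406) and without WT replicate 1 or 2 (0.36 for each, limma adjusted p = 0.0566 and 0.0541).

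The type II receptors did not move together. Acvr2a (ENSMUSG00000052155, chr2:48814109-48903269, plus strand) had 5.75, 5.84 and 5.58 FPKM in Max-KO libraries, against 3.45, 3.25 and 1.85 FPKM in WT libraries. The groups did not overlap, and WT replicate 3 was lowest by a wide margin. The log2 difference was 0.83 ± 0.18 (SE; limma adjusted p = 0.00486), and it was 0.63 without WT replicate 3 (limma adjusted p = 0.0019). Acvr2a shares 446 exonic bases with Orc4 on the other strand, and no source used here says whether the counting used strand, so its level is uncertain by that overlap. Orc4, an origin recognition subunit, had 31.6, 44.1 and 32.3 FPKM in Max-KO libraries, against 30.7, 35.2 and 33.5 FPKM in WT libraries.

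Acvr2b (ENSMUSG00000061393, chr9:119402118-119434995, plus strand) had 8.85, 9.01 and 9.75 FPKM in Max-KO libraries, against 9.71, 10.01 and 9.67 FPKM in WT libraries. The groups overlapped, and the log2 difference was -0.08 ± 0.08 (SE; 95% interval -0.26 to 0.10; limma adjusted p = 0.365). Its sign turned with TPM rescaling of each library to a common sum (0.11, limma adjusted p = 0.229), and it was called lower with quantile normalization (-0.37, limma adjusted p = 0.00467). No direction from 0 is therefore given for Acvr2b, though its interval as fitted lay wholly below the median of all genes tested (0.21).

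Of the SMAD genes, Smad3 and Smad7 fell and Smad2 was not called. Smad3 (ENSMUSG00000032402, chr9:63646767-63757994, minus strand), a receptor-activated SMAD that binds DNA directly, had 1.37, 1.57 and 2.56 FPKM in Max-KO libraries, against 3.59, 3.45 and 3.18 FPKM in WT libraries. It had few fragments, an estimated 159 to 352 per Max-KO library and 356 to 439 per WT library. The groups did not overlap, Max-KO replicate 3 came closest to WT, and the log2 difference was -0.66 ± 0.17 (SE; limma adjusted p = 0.0106).

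Smad2 (ENSMUSG00000024563, chr18:76241580-76310963, plus strand), the other receptor-activated SMAD of the pathway, had 19.3, 20.4 and 18.5 FPKM in Max-KO libraries, against 20.06, 16.7 and 17.9 FPKM in WT libraries. The groups overlapped (log2 difference 0.09 ± 0.08 SE, 95% interval -0.11 to 0.29, limma adjusted p = 0.381). Scaling decided its sign: the log2 difference was -0.03 with median-ratio scaling, -0.12 with quantile normalization and 0.30 with TPM rescaling, and only the last of these was called (limma adjusted p = 0.0227).

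Smad7 (ENSMUSG00000025880, chr18:75367529-75395935, plus strand), the inhibitory SMAD, had 17.5, 13.4 and 14.2 FPKM in Max-KO libraries, against 18.7, 21.6 and 21.2 FPKM in WT libraries. The groups did not overlap, though Max-KO replicate 1 and WT replicate 1 were close. The log2 difference was -0.43 ± 0.11 (SE; limma adjusted p = 0.0118). With TPM rescaling it was -0.23 and not called (limma adjusted p = 0.113).

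**Figure D2:**
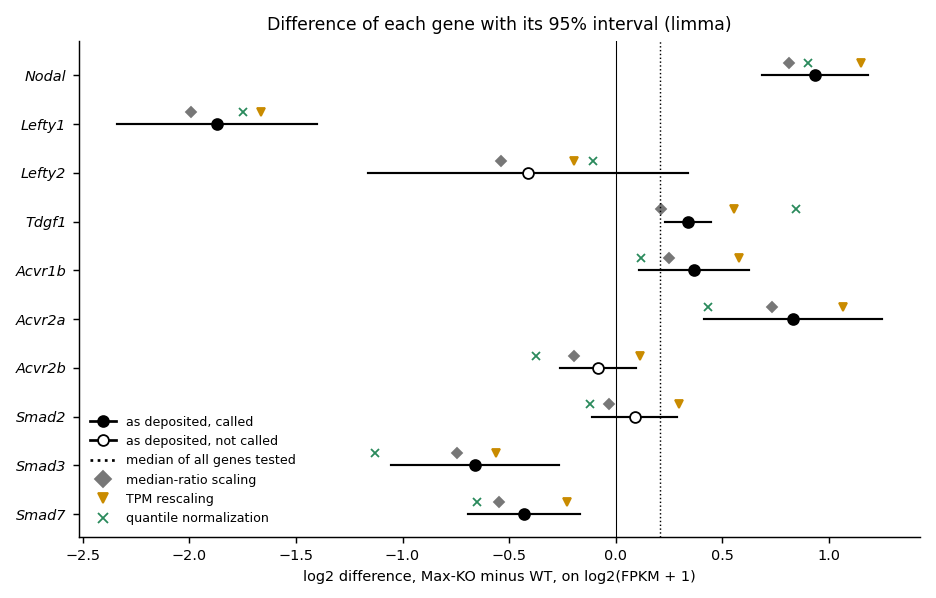
Log2 difference, Max-KO minus WT, of log2(FPKM + 1) for each of the 10 genes, with its 95% interval from limma (horizontal line), filled circles for called genes, and small symbols for other scalings between libraries. The dotted line at 0.21 is the median of all genes tested; Lefty1 lies farthest left at -1.87 and Nodal farthest right at 0.93, and Acvr2b and Smad2 change sign with the scaling.

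Ratios of 2 genes within a library do not change when a library is scaled by a single factor, and 7 were compared. Quantile normalization is not such a factor, and the ratios were not computed under it. Lefty1 to Nodal was 0.622, 1.01 and 1.46 in Max-KO libraries, against 7.01, 6.83 and 7.05 in WT libraries. The WT ratios were nearly equal, while each Max-KO ratio was lower than all of them, by 7.17-fold on the geometric mean. The exact 2-sided permutation p was 0.10, the smallest that 3 against 3 libraries can give.

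Lefty2 to Nodal was 3.02, 5.27 and 9.50 in Max-KO libraries, against 14.3, 13.7 and 13.3 in WT libraries. Here the groups did not overlap, unlike for Lefty2 alone (exact permutation p = 0.10). Lefty1 to Lefty2 was 0.206, 0.191 and 0.154 in Max-KO libraries, against 0.491, 0.499 and 0.531 in WT libraries. The ratio of Lefty1 to Lefty2 was thus lower in every Max-KO library, by 2.78-fold on the geometric mean (exact permutation p = 0.10).

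Of the remaining ratios, Tdgf1 to Nodal was 11.9, 14.1 and 15.9 in Max-KO libraries, against 22.2, 21.4 and 20.1 in WT libraries. Acvr2a to Acvr2b was 0.6497, 0.648 and 0.572 in Max-KO libraries, against 0.355, 0.325 and 0.191 in WT libraries. Smad3 to Smad2 was 0.0711, 0.0770 and 0.138 in Max-KO libraries, against 0.179, 0.207 and 0.177 in WT libraries. Each of these 3 ratios kept the groups apart, with an exact permutation p of 0.10. Of single genes tested, 72.0% also had groups without overlap, and the share over ratios of other gene pairs was not computed. With quantile normalization the log2 differences of Tdgf1 (0.84) and Nodal (0.90) were close to each other, unlike 0.34 and 0.93 as fitted. Smad7 to Smad3, which sets the inhibitory SMAD against an activating one, was 12.8, 8.52 and 5.56 in Max-KO libraries, against 5.21, 6.26 and 6.66 in WT libraries, and the groups overlapped (exact permutation p = 0.30).

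**Figure D3:**
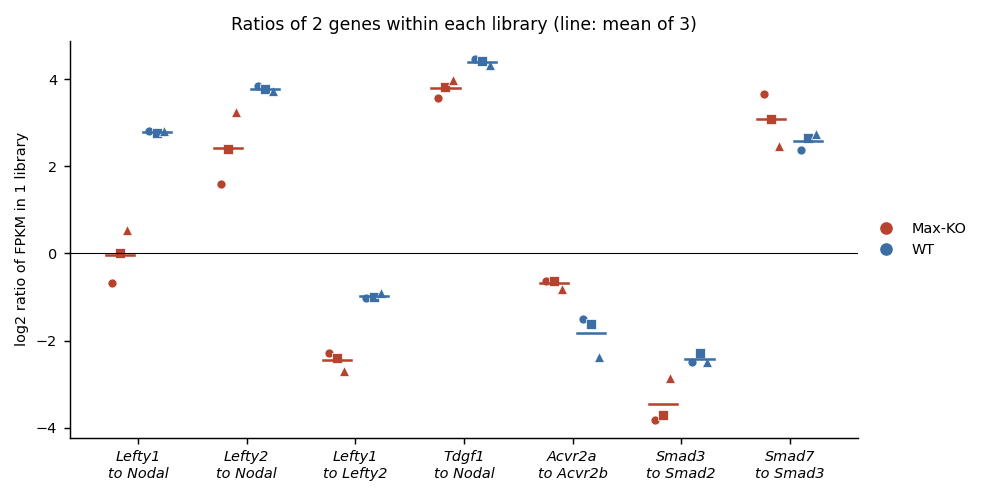
Log2 ratio of the FPKM of 2 genes within each library, for 7 pairs, with the Max-KO libraries (red) left of the WT libraries (blue) and a line at the mean of 3. The 6 ratios other than Smad7 to Smad3 do not overlap between genotypes, and Lefty1 to Nodal has the widest gap, with a log2 difference of -2.84. Of single genes tested, 72.0% do not overlap either.

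The Max-KO libraries also differed among themselves in some of these genes, most of all in Lefty2 and Lefty1. The SD of log2(FPKM + 1) of Lefty2 was 0.62 in Max-KO libraries and 0.03 in WT libraries (n = 3 each). Its highest Max-KO value was 2.37 times its lowest, against 1.04 times in WT libraries. Over 8313 protein-coding genes with means of at least 5 FPKM in both genotypes, the median SD was 0.08 in Max-KO libraries and 0.10 in WT libraries. In Max-KO libraries 33 of these genes (0.397%) had a larger SD than Lefty2, and in WT libraries 90.7% did.

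Lefty1 had an SD of 0.41 in Max-KO libraries and 0.09 in WT libraries, and 1.23% of the genes had a larger one in Max-KO libraries. Nodal, at 0.20 in Max-KO libraries and 0.08 in WT libraries, was exceeded by 9.60% of the genes in Max-KO libraries. Smad3 (0.31), Acvr1b (0.21) and Smad7 (0.19) also had SDs in Max-KO libraries above the median of 0.08. Tdgf1 was at the other end, with 0.01 in Max-KO libraries and 97.3% of the genes above it. Acvr2a (0.03), Smad2 (0.07) and Acvr2b (0.07) were under that median in Max-KO libraries too. Smad3 and Acvr2a averaged under 5 FPKM in at least 1 genotype, so they are not among the 8313 genes. Acvr2a (0.35) and Smad2 (0.13) had larger SDs in WT libraries. These SDs rest on 3 libraries and no test was made of them.

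Among the Max-KO libraries, the one with the most Nodal had the least Lefty1 and Lefty2. Max-KO replicate 1 held the highest Nodal and the lowest Lefty1, Lefty2, Smad3, Acvr1b and Acvr2b of the Max-KO libraries. Max-KO replicate 3 held the lowest Nodal and the highest of those 5 genes. Of all genes tested, 17.8% were highest in Max-KO replicate 3 and lowest in replicate 1, as these 5 were, and 17.9% were the other way round, as Nodal was.

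**Figure D4:**
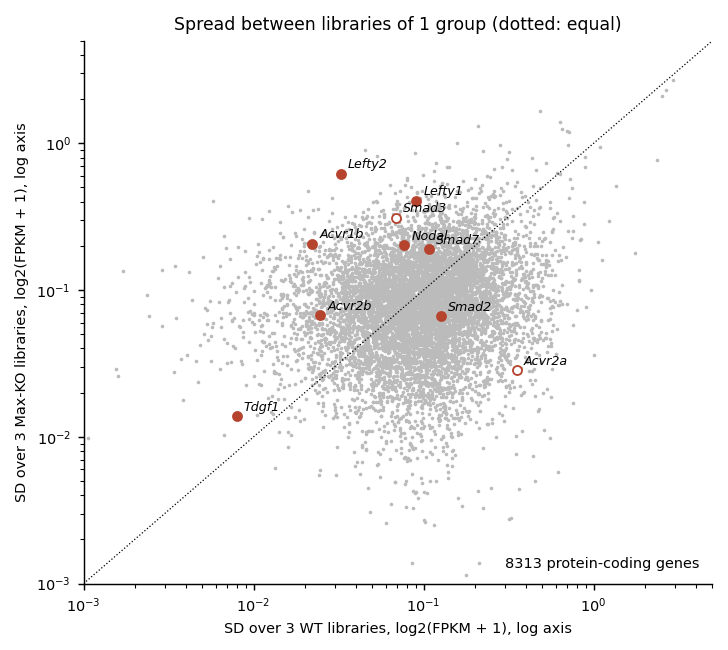
SD of log2(FPKM + 1) over the 3 Max-KO libraries and over the 3 WT libraries for 8313 protein-coding genes (grey). Axes are log, and the members are named. Open symbols mark Smad3 and Acvr2a, which averaged under 5 FPKM in at least 1 genotype and are not among the 8313. Of the 8313, 4 genes with an SD under 0.001 lie outside the axes. Lefty2 (0.62 in Max-KO, 0.03 in WT) and Lefty1 (0.41 and 0.09) lie at the wide end for Max-KO and inside the cloud for WT, and Tdgf1 lies at the narrow end for both.

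A wider set was read from 9 lists of 99 further genes, of which 75 were tested. Some genes stand in more than 1 list, and the totals count each gene once. The lists include the BMP branch (16 tested, 14 higher and 0 lower) and MAX with its partners (11 tested, 5 higher and 1 lower). The totals in this paragraph are over all 9 lists and so do not describe Nodal signalling alone. In Max-KO cells 44 rose and 12 fell, so 56 (74.7%) were called, beside 66.2% of all genes tested, and 19 were not. With median-ratio scaling 39 were higher and 18 lower, with TPM rescaling 52 and 8, and with quantile normalization 32 and 17, or 49 in all. Of the 75, 67 had means of at least 1 FPKM in both genotypes, and for the other 8 the filter set the direction. The median log2 difference over the 75 was 0.48, beside 0.21 over all genes. The counts of each list below stand beside 43.0% of all genes tested that were higher and 23.2% that were lower.

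Of 12 other ligands 5 were tested, and 3 rose and 2 fell. Tgfb1 averaged 12.8 ± 0.984 FPKM in Max-KO cells and 4.65 ± 0.749 FPKM in WT cells (log2 difference 1.30, limma adjusted p = 9.39e-05), and Inhbb, which encodes the subunit of activin B, differed by 1.11. Gdf11 differed by 0.68, from a WT level under 1 FPKM, but by 0.03 with quantile normalization. Gdf3, a ligand that can use the same co-receptor, differed by -0.28, and by -0.07 without a call with TPM rescaling. Gdf1, which forms heterodimers with Nodal and passed the filter only through WT, was at 0.497 ± 0.0252 FPKM in Max-KO cells and 3.96 ± 0.620 FPKM in WT cells (-1.72, limma adjusted p = 3.85e-05). Gdf1 shares 1349 exonic bases with Cers1 on the same strand, so its level is uncertain.

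The precursor of Nodal is cleaved by the proprotein convertases FURIN and PACE4. Pcsk6, which encodes PACE4, averaged 21.2 ± 2.26 FPKM in Max-KO cells and 8.50 ± 0.544 FPKM in WT cells (log2 difference 1.22, limma adjusted p = 5.22e-05). Furin was not called, with a log2 difference of 0.04.

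Among 6 other receptors and co-receptors 4 were tested, and 3 rose and none fell. They were Tgfbr3 (log2 difference 1.83, from a WT level under 1 FPKM), the type I receptor gene Tgfbr1 (0.71) and Acvr1 (0.32, limma adjusted p = 0.0499, but called in only 3 of the 13 alternatives and at -0.12 with quantile normalization). Cfc1, the other EGF-CFC gene, had a log2 difference of 0.45 and was not called. Of 10 tested antagonists, of which 2 to 4 were higher and 3 to 5 lower under the other scalings, 2 rose, the activin-binding Fst (1.08) and Dact2 (0.91), and 3 fell, Fstl3 (-0.80, from a Max-KO level under 1 FPKM, so that it could only fall), Tmeff1 (-0.70) and Fstl1 (-0.62). Cer1, a secreted Nodal inhibitor, was listed at 0 in all 6 libraries.

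Of 10 tested SMAD partners 5 rose and 2 fell, with 2 to 7 higher and 1 to 2 lower under the other scalings between libraries. Smad4, the common SMAD, averaged 34.5 FPKM in Max-KO cells and 24.97 FPKM in WT cells (log2 difference 0.44, limma adjusted p = 0.0182). Its call was lost with median-ratio scaling (limma adjusted p = 0.0595), with quantile normalization (0.0617), with the replicate number as a block (0.0516) and without WT replicate 1 (0.0574). Zfyve9, which encodes the SMAD anchor SARA, differed by 0.65, Eomes by 0.56 (0.14 and not called with quantile normalization), the SMAD2 corepressor gene Tgif1 by 0.52 and Trim33, which encodes a SMAD-binding ubiquitin ligase, by 0.48 (called in 7 of the 13 alternatives). Drap1, a corepressor that binds FOXH1, averaged 47.8 FPKM in Max-KO cells and 92.2 FPKM in WT cells (-0.93). Of 11 genes listed under ubiquitin enzymes and phosphatases of the pathway, 7 rose and 3 fell. Under the other scalings 5 to 7 were higher and 1 to 3 lower. Pmepa1 and Ldlrad4 in this list encode membrane proteins that bind SMADs rather than such enzymes, and both rose. Usp9x (1.09) and Rnf111 (0.93), which acts on SMAD7 and SKI proteins, lay farthest up and Usp15 (-0.59) farthest down.

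Among 18 known targets of SMAD2/3 or Nodal, 10 were tested, and 7 rose and 1 fell. Eomes, Pmepa1 and Ldlrad4, among the 7, were also counted in the lists above. Under the other scalings 4 to 8 were higher and 1 lower. When 1 library was left out, 5 to 6 were higher (5 without Max-KO replicate 2, WT replicate 1 or WT replicate 2). The background of higher genes was 43.0%. Ccn2, a matrix protein gene also called Ctgf, averaged 115.5 ± 16.2 FPKM in Max-KO cells and 16.8 ± 0.858 FPKM in WT cells (log2 difference 2.70 ± 0.10 SE, limma adjusted p = 3.43e-06). Pmepa1 (0.80) and Ldlrad4 (0.88), which encode membrane proteins that bind SMADs, also rose, as did Sox17 (0.91, from a WT level under 1 FPKM, and called in 8 of the 13 alternatives), and Ldlrad4 shares 2798 exonic bases with Fam210a on the other strand.

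The BMP branch, which signals through other SMADs, was listed as well. Of its 16 tested genes 14 rose and none fell (12 to 15 higher and none lower under the other scalings), beside 43.0% of all genes tested higher. Bmp8a and Chrd, 2 of the 14, had passed the filter only through Max-KO and could only rise. The 14 also include Smad6 (0.71), an inhibitory SMAD of the branch, so the count is not of activating genes alone. The summed level of the 23 genes was 468 to 594 FPKM in Max-KO libraries and 131 to 139 FPKM in WT libraries. Id1 and Id2 made up most of this sum in Max-KO libraries, so it describes these 2 genes more than the branch. Id1, an inhibitor of helix-loop-helix factors and a direct BMP target, averaged 270.0 ± 42.8 FPKM in Max-KO cells and 36.8 ± 1.62 FPKM in WT cells (log2 difference 2.83 ± 0.11 SE, limma adjusted p = 3.95e-06). Id2, which averaged 131 FPKM in Max-KO cells and 29.3 FPKM in WT cells, differed by 2.12, the receptor gene Bmpr1b by 1.92 and Id4 by 1.91. The ligand gene Bmp8a differed by 1.21, from a WT level under 1 FPKM.

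Of MAX and its partners, 5 of 11 rose and 1 fell, with 4 to 6 higher and 1 to 5 lower under the other scalings. Myc averaged 96.7 FPKM in Max-KO cells and 16.95 FPKM in WT cells (log2 difference 2.45), and Mycl (0.80), Mga (0.67) and Mycn (0.61) rose too. The call of Mga was lost without Max-KO replicate 2 (limma adjusted p = 0.0521) and without Max-KO replicate 3 (0.0613), and its log2 difference was 0.44 without WT replicate 3. Mxi1 fell (-0.63).

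**Figure D5:**
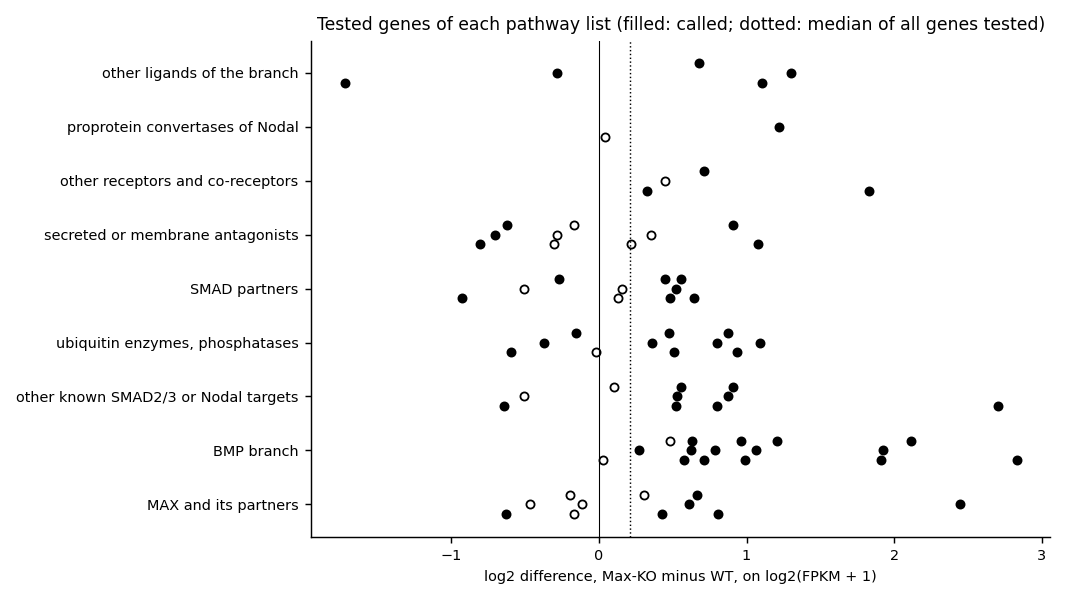
Log2 difference, Max-KO minus WT, of log2(FPKM + 1) for every tested gene of the 9 lists, filled where called and open where not, with the median of all genes tested (0.21) dotted. The BMP branch lies almost wholly to the right, with Id1 at 2.83, while ligands and antagonists lie on both sides.

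The genes most alike to 3 of the members were found by Pearson's r of log2(FPKM + 1) over the 6 libraries, among 9158 genes, as a description. For Nodal they were Zfp423 (0.998), Ptk7 (0.998) and Fam107b (0.997). For Lefty1 they were Acy1 (0.999), Rps24 (0.999) and Mrps36 (0.998), and for Smad7 Polr1a (0.993), Metrn (0.992) and Prpf4 (0.989). The points share 2 clusters of libraries, so r can be high for many genes that differ between genotypes in the same direction. With Nodal 1216 genes reached 0.95, with Lefty1 1198 and with Smad7 50.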

How the data were processed

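The deposited values are FPKM per gene and library, a unit read from the values, which are not whole and sum to different totals, since the files carry no header. Total RNA was extracted with Trizol and made into libraries with an Illumina TruSeq kit, per the labels' protocols, and no source used here says whether the kit marks strand. FastQC, HISAT2 2.1.0, RSEM, DESeq 1.26.0 and build GRCm38.p6 are named, without role or order, per the submitters' processing notes. Each library lists 56689 identifiers, 55536 of them Ensembl genes, of which 55450 had a GENCODE M21 symbol. FPKM does not state the depth: steps between low values gave an estimated 21.05 to 28.5 M fragments per library, with 86.7% to 89.9% of the values within 0.15 of a whole step, and the steps were chosen to fit these same values. No counts were rebuilt.

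The 14661 genes that averaged 1 FPKM or more in either genotype were tested 2-sided on log2(FPKM + 1), using limma 3.58.1 under R 4.3.3 with trended, robust variance moderation, Benjamini-Hochberg adjustment over all of them and a threshold of 0.05. This scale understates changes of low genes. The code was tested on simulated data. Ratios used exact permutation tests over libraries in scipy 1.17.1. All members are named, with every tested gene of lists of up to 6 genes and otherwise up to 5 called genes with the largest differences per list, and the largest in the opposite direction; Smad4, Cer1, Chrd, the marker genes named and the genes of the closing section were added after their values were seen. Members and lists were chosen with earlier results of these data known. Alternatives were a pseudocount of 0.1, no filter, 3 other scalings between libraries, plain limma, the replicate number as a block, and leaving out each library. A gene of the target list and a stretch of sequence are not reported here.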

Additional observations from a re-analysis of the deposited data

How the results depend on the processing

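Nodal, Lefty1, Tdgf1, Acvr2a and Smad3 kept their direction and their call under all 13 alternatives, with log2 differences of 0.81 to 1.15, -2.06 to -1.66, 0.21 to 0.84, 0.43 to 1.07 and -1.13 to -0.54 in that order of genes. Of the 10 members, 6 to 8 were called, beside 7 as reported. Lefty2 ranged from -0.73 (without Max-KO replicate 3, called) to -0.11 when 1 library was left out. Acvr1b was 0.25 with median-ratio scaling and 0.12 with quantile normalization, neither called, and 0.25 to 0.45 when 1 library was left out. With TPM rescaling, Acvr2b was 0.11, Smad2 0.30 (called) and Smad7 -0.23 (not called). Acvr2b was -0.37 with quantile normalization (called), and Smad2 was -0.031 with median-ratio scaling and -0.12 with quantile normalization. Furin was -0.067 with median-ratio scaling, -0.29 with quantile normalization and -0.059 to 0.13 when 1 library was left out. Cfc1 was -0.17 and Acvr1 -0.12 with quantile normalization. The cause of these shifts was not tested. The median of all genes was 0.10 with median-ratio scaling, 0.41 with TPM rescaling and -0.02 with quantile normalization, beside 0.21, and 56.3%, 76.9% and 46.7% of calls were then higher in Max-KO cells, beside 64.9%. The 6 ratios whose groups did not overlap kept their direction throughout, and with 1 library left out the smallest p possible is 0.20.

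The labels number the samples 1 to 3 in both genotypes. Deviations from the group means correlated at -0.0006, 0.016 and 0.086 between samples of the same number, and not every sample correlated best with its own number, so the numbers were not read as pairs. With the replicate number as a block, 9485 genes were called, beside 9703, and no member's call changed (Nodal 0.93, limma adjusted p = 0.0017).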

Other observations

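Skil, which encodes the SMAD corepressor SnoN and is a known SMAD2/3 target, had widely spread levels in Max-KO cells. It had 13.4, 48.7 and 14.2 FPKM in Max-KO libraries, against 32.02, 33.2 and 26.9 FPKM in WT libraries. Max-KO replicate 2 lay above all WT libraries and the other 2 lay below them, and Skil was not called (log2 difference -0.51 ± 0.51 SE, limma adjusted p = 0.417). Without Max-KO replicate 2 it was -1.09 and called (limma adjusted p = 5.67e-04). It was chosen after its values were seen.

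Several BMP and SMAD feedback genes were, like Nodal, highest in Max-KO replicate 1 and lowest in replicate 3. Id1 had 310.4, 274 and 225 FPKM in Max-KO libraries, against 36.8, 35.2 and 38.4 FPKM in WT libraries. Smad6, an inhibitory SMAD of the BMP branch, had 4.17, 3.24 and 2.62 FPKM in Max-KO libraries, against 1.6, 1.57 and 1.72 FPKM in WT libraries. Pmepa1 had 12.4, 10.4 and 8.37 FPKM in Max-KO libraries, against 5.07, 6.09 and 5.35 FPKM in WT libraries. For each of these genes every Max-KO library lay above every WT library, beside 72.0% of all genes tested with groups that did not overlap. Smad6 was called in 12 of the 13 alternatives, with a log2 difference as low as 0.27. Id1, Smad6 and Pmepa1 too were chosen after their values were seen, and 17.9% of all genes tested had this order of Max-KO libraries. Not all genes of the BMP branch had it: Bmpr1b, with 5.87, 6.85 and 8.03 FPKM in Max-KO libraries, had the opposite order.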
